A study of Mus musculus with 16 samples.

Results

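Regulatory T cells (Tregs) were taken from 16 single-cell libraries of CD45+ leukocytes that infiltrated mouse tumors. A cell barcode was a member when it carried at least 1 unique molecular identifier (UMI, 1 counted transcript molecule) of the T cell receptor genes Cd3d, Cd3e or Cd3g and at least 1 UMI of Foxp3, no UMI of Cd8a or Cd8b1, and at most 1 UMI of the proliferation genes Mki67 and Top2a. Before this gate, barcodes needed 500 detected genes and at most 10% mitochondrial UMIs, and a barcode string found in several libraries of a tumor line was kept where its UMIs were highest. The deposited matrices held 28678 barcodes, 16350 remained, and 180 of these (1.10%) were Tregs. Members were thus chosen by measured UMIs of the gate genes, whose levels are given below as a description with no test.

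Tregs are CD4 T cells that hold back the responses of other lymphocytes, and the transcription factor Foxp3 is required for that program. They express the high-affinity IL-2 receptor chain Il2ra (CD25), which lets them capture IL-2, and the checkpoint receptor Ctla4, which competes for costimulatory ligands on dendritic cells. In solid tumors they are commonly activated effector cells with tumor necrosis factor (TNF) receptor family members on the surface. Ionizing radiation breaks DNA, which stabilizes the transcription factor p53 and with it transcription of genes for cell cycle arrest, repair and cell death.

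All mice were C57BL/6J, and the tumors were subcutaneous MC38, a colorectal carcinoma line, or Panc02-SIY, a pancreatic adenocarcinoma line carrying the model antigen SIY. Tumors were untreated (NT) or were collected 24 h after a single CT-guided dose of 12 Gy (RT), and live CD45+ cells were sorted and run on the 10x 3' platform, so Tregs of draining lymph nodes and tumor cells were not sampled. Labels give 4 replicates for each of the 4 groups (MC38 NT, MC38 RT, Panc02-SIY NT and Panc02-SIY RT), while the methods state 3 animals per group. It is not stated which animal each library came from, so p-values measure the spread between libraries. Libraries held between 3240877 and 43776342 UMIs, and the median Treg had 4535 UMIs and 1942 genes, against a median of 7514 UMIs over all CD3 barcodes.

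Of the 180 Tregs, 159 came from Panc02-SIY and 21 from MC38. The 4 Panc02-SIY NT libraries held 27, 15, 23 and 5 Tregs, and the 4 Panc02-SIY RT libraries 14, 24, 42 and 9. In MC38 the NT libraries held 3, 0, 6 and 3 and the RT libraries 2, 0, 5 and 2. The MC38 libraries stood apart from the others in that they shared most of their barcode strings: 5764 of 7360 barcodes that passed the filters were removed as repeats in MC38, against 191 of 14945 in Panc02-SIY. Among the MC38 Tregs, 6 of 21 had a string also seen in another MC38 library and 4 had one seen in all 8, against 1 of 159 in Panc02-SIY. At least 1 UMI of another lineage's defining genes was present in 20 of 21 MC38 Tregs (95.2%) and in 68 of 159 Panc02-SIY Tregs (42.8%), and in 40.9% of the Foxp3-negative CD4 T cells of Panc02-SIY. At the required 5 Tregs per library, gene tests were therefore made between Panc02-SIY groups and MC38 is described by counts, and a fit with libraries of at least 1 Treg is given for MC38 at the end. The third NT and the third RT library of MC38, with 6 and 5 Tregs, still entered the Treg fit of NT against RT. Each was alone in its group there, so neither added to the estimate of spread, but both entered the filter on low counts.

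The gate was checked against genes it did not use. Of the 180 members, 140 had UMIs of all 3 of Il2ra, Ctla4 and Ikzf2 (Helios, a transcription factor of many thymus-derived Tregs), 34 had 2 of them, 5 had 1 and 1 had none. In Panc02-SIY, with every barcode thinned to 1500 UMIs so that depth is equal, Ikzf2 was detected in 91.1% of 157 Tregs, against 23.9% of 368 Foxp3-negative CD4 T cells, 16.2% of CD8 T cells and 1.88% of C1q macrophages. Il2ra was detected in 67.5% of Tregs, 21.5% of CD4 T cells, 11% of CD8 T cells and 0.399% of macrophages, and Ctla4 in 68.8%, 31.8%, 42.2% and 0.912% in the same order. Tregs had the highest share for each of the 3 genes, with counting intervals that did not overlap those of the other populations. Cd4 itself, which the gate did not require, was found in 71.1% of Panc02-SIY Tregs before thinning.

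**Figure D1:**
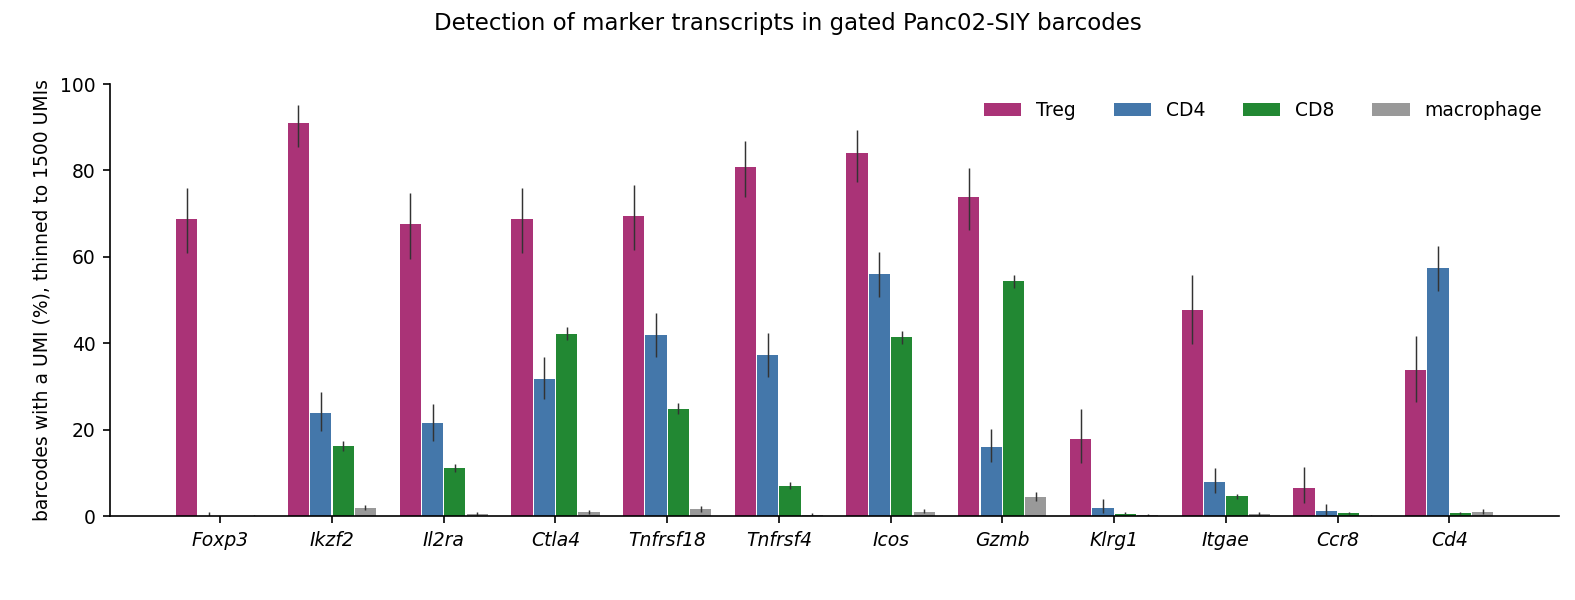
Share of Panc02-SIY barcodes with a UMI of each gene (y axis, percent, every barcode thinned to 1500 UMIs) in Tregs, Foxp3-negative CD4 T cells, CD8 T cells and macrophages. Bars are shares over all barcodes of a gate and lines are 95% exact binomial intervals, which cover counting error only. Ikzf2 reaches 91.1% in Tregs and 23.9% in CD4 T cells.

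Background detection of Foxp3, which lies on chromosome X from 7573644 to 7595245 on the plus strand (GRCm38), was low outside T cells. Among Panc02-SIY macrophages, which should lack Foxp3, 8 of 2208 barcodes (0.362%, median 6276 UMIs) had a Foxp3 UMI, and among B cells 1 of 435 did (0.230%). In MC38 the macrophage share was 1.08% at a median of 25300 UMIs. At the edge of the gate, 44 members carried exactly 1 Foxp3 UMI, 43 carried 2, and 93 carried 3 or more. Just outside were 34 Foxp3 barcodes with a single Cd8 UMI and 18 with exactly 2 cycling UMIs. Panc02-SIY members with 1 Foxp3 UMI had 744 CPM of Il2ra (UMIs of a gene scaled to the summed UMIs, CPM) and 2395 CPM of Ikzf2, and those with 2 or more had 1126 and 3217 CPM. Foxp3-negative CD4 T cells had 239 CPM of Il2ra and 367 CPM of Ikzf2, below both kinds of member. The gate also left out 3 kinds of Foxp3 barcode, with 78, 51 and 32 barcodes over all libraries, whose levels are given for Panc02-SIY. There the 73 with Cd8 UMIs had 615 CPM of Il2ra and 1274 CPM of Ikzf2, and the 41 cycling ones had 595 and 1735 CPM, both between the members and the Foxp3-negative CD4 T cells. The 19 without a Cd3 UMI had 49.9 and 224 CPM.

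The share of T cells that were Tregs was compared between NT and RT, because radiation can change which lymphocytes remain in a tumor. After thinning to 1500 UMIs, Tregs made up 3.92%, 1.24%, 2.61% and 0.169% of CD3 barcodes in the 4 Panc02-SIY NT libraries and 3.53%, 2.2%, 4.33% and 0.526% in the 4 RT libraries. The ranges overlapped, and the fourth library was the lowest of its group in both. The means were 1.98% ± 1.63 (SD, n = 4) and 2.65% ± 1.66 (SD, n = 4), and the difference of 0.661 percentage points was smaller than the spread between libraries (exact permutation test, two-sided, p = 0.629, adjusted p = 0.767). Its sign was not stable, at -0.432 percentage points when thinned to 1000 UMIs. Without thinning, the NT libraries held 5.27%, 1.32%, 2.56% and 0.244% and the RT libraries 4.52%, 2.43%, 4.10% and 0.681%. Without the fourth NT library the difference was 0.0556 percentage points.

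Against the other CD4 T cells, Tregs were 43.6%, 33.3%, 48.8% and 6.82% of Treg plus CD4 barcodes in Panc02-SIY NT and 20%, 26.8%, 47.4% and 18.2% in RT. These also overlapped, with means of 33.1% ± 18.7 and 28.1% ± 13.4 (SD, n = 4 each, exact permutation p = 0.657, adjusted p = 0.767). Leaving out 1 library moved the difference, -5.04 percentage points over all 8, to between -13.8 without the fourth NT library and 0.181 without the third NT library. Against CD8 T cells, Tregs were 2.93% ± 2.44 of Treg plus CD8 barcodes in NT and 4.74% ± 3.28 in RT (SD, n = 4 each, exact permutation p = 0.400, adjusted p = 0.700), and the difference was -0.0952 percentage points when thinned to 1000 UMIs. The smallest p that 4 against 4 libraries allow is 0.0286. Of the 12 comparisons planned over 3 shares, 7 had enough barcodes, and p-values were adjusted over those 7.

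In MC38, Tregs made up 7.14%, 0%, 23.5% and 10.0% of CD3 barcodes in NT and 8.33%, 14.3% and 5.26% in the 3 RT libraries with at least 10 CD3 barcodes. The second RT library, left out of the means, had 0 of 5, which allows a share of up to 60%. Each value rests on few barcodes, since the library with the most CD3 barcodes at this depth had 38, and 0 of 13 in the second NT library allows a share of up to 23.1%. The means were 10.2% ± 9.85 (SD, n = 4) and 9.29% ± 4.59 (SD, n = 3), which did not differ beyond the spread (exact permutation p = 0.914). Between tumors, the 3 MC38 RT libraries with at least 10 CD3 barcodes were above all Panc02-SIY RT libraries, by 6.65 percentage points in the means, at the smallest p this design allows (exact permutation p = 0.0571, adjusted p = 0.333). For untreated tumors the difference was 8.18 percentage points with overlapping libraries (exact permutation p = 0.143, adjusted p = 0.333). No Treg share passed the threshold of an adjusted p of 0.1, and the removal of repeated barcodes, which was uneven between the tumor lines, cannot be told apart from the tumor in the last 2 comparisons.

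**Figure D2:**
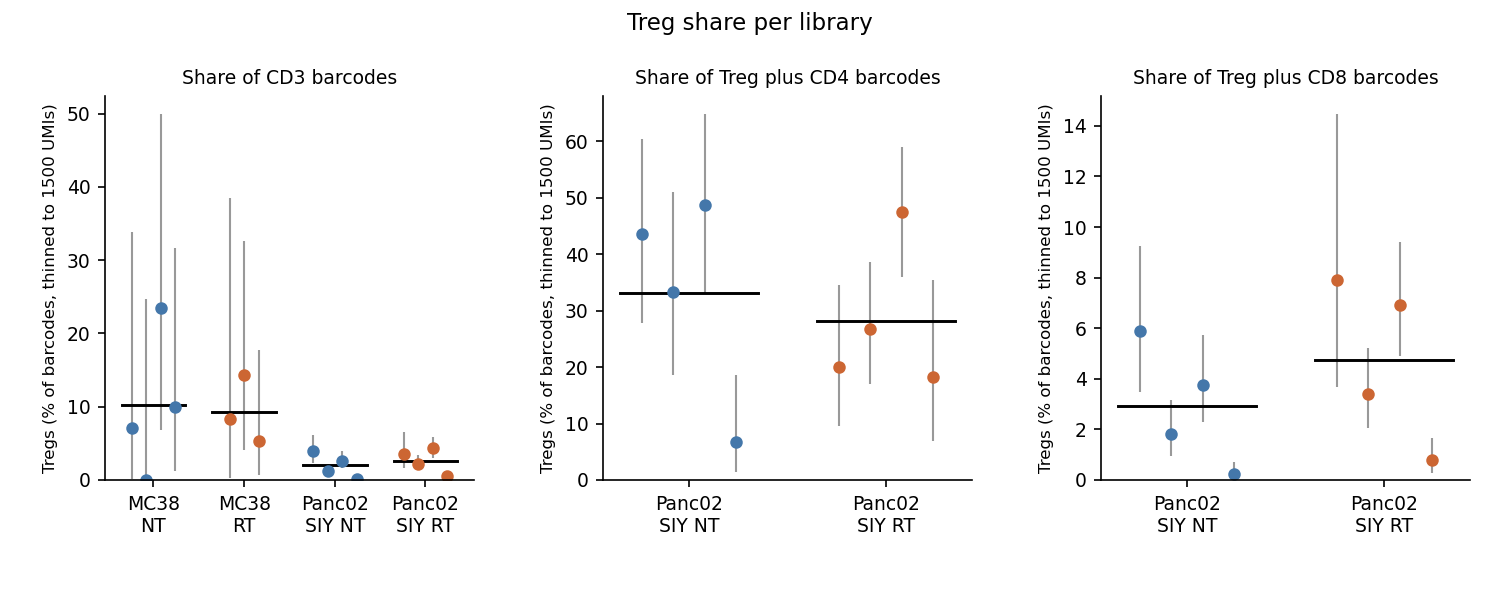
Treg share per library (y axis, percent of the denominator named above each panel, barcodes thinned to 1500 UMIs) in NT and RT tumors. Points are libraries with at least 10 denominator barcodes, grey lines are 95% exact binomial intervals and black lines are group means. The Panc02-SIY NT and RT points overlap in all 3 panels.

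To ask which transcripts differed in Tregs of irradiated tumors, UMIs were summed over the Tregs of each library and fitted with edgeR's quasi-likelihood test, with Benjamini-Hochberg adjustment over 6580 genes. In Panc02-SIY, 4 genes rose after RT and none fell when calls required adjusted p under 0.1 with more than 1.3-fold difference, which is 0.0608% of the genes in the first direction and 0% in the second. At an unadjusted p below 0.05 there were 306 genes, and DESeq2 called 1. The genes were Cdkn1a, Ccng1, Phlda3 and Rps19, of which the first 3 are p53 targets. The median log2 fold change over all genes was 0.03. With only the Panc02-SIY libraries in the fit, 4977 genes were tested and 3 were called, without Rps19.

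Cdkn1a encodes p21, the inhibitor of cyclin-dependent kinases that holds damaged cells in G1. It lies on chromosome 17 from 29090976 to 29100727 on the plus strand (GRCm38). Tregs of the 4 NT libraries had 31.4, 174, 96.7 and 0 CPM of Cdkn1a, and those of the 4 RT libraries had 492, 433, 386 and 460 CPM. Every RT library was above every NT library, and the RT libraries lay close together. The means were 75.6 ± 77.2 and 442 ± 44.9 CPM (SD, n = 4 each), which is 2.44 on the log2 scale (SE 0.36, adjusted p = 0.000127 in edgeR). By barcode, 15 of 70 NT Tregs (21.4%) and 43 of 89 RT Tregs (48.3%) had a Cdkn1a UMI, and at 1500 UMIs per barcode the shares were 11.4% and 32.2%.

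The promoter of Cdkn1a is shown because it holds the core of a p53 response element close to the start. The 30 bases below are chr17:29090923-29090952 on the plus strand of GRCm38.p6 (RefSeq), from the window of 250 bases before to 50 bases after the start. Capitals mark the match to 2 adjoining copies of the p53 core half-site, a motif that reads the same on both strands.
Cdkn1a: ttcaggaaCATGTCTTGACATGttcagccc
The match spans bases 29090931 to 29090944, upstream of the gene's annotated start. Of 32851 RefSeq promoter windows of the same length, 2371 (7.22%) hold a match, and those of Ccng1, Phlda3, Bax, Mdm2 and Rps19 and a second Cdkn1a start do not. A match is a description of the letters, and nothing was measured on binding.

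Ccng1 encodes cyclin G1, a p53 target that acts on the Mdm2 feedback loop, and lies on chromosome 11 from 40748552 to 40755311 on the minus strand. Its levels were 126, 125, 106 and 91.4 CPM in NT and 412, 441, 352 and 166 CPM in RT. All RT libraries were above all NT libraries, with the fourth RT library nearest to NT (log2 fold change 1.60, SE 0.32, edgeR adjusted p = 0.00960). Ccng1 UMIs were in 41.4% of NT and 67.4% of RT Tregs. Phlda3, a p53 target that blocks Akt at the membrane, lies on chromosome 1 from 135766119 to 135769136 on the plus strand. It was at 6.3, 0, 0 and 0 CPM in NT and at 66.4, 50.9, 61.5 and 73.6 CPM in RT. These values are 1 UMI in all NT Tregs against 26 in RT, a ratio of 23.3 with a counting interval of 3.82 to 953, and the fitted log2 fold change was 3.97 (SE 0.93, edgeR adjusted p = 0.0891). Phlda3 passed the filter on low counts only through RT, where it is high, so its call is given as a description.

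Rps19 encodes a protein of the small ribosomal subunit and lies on chromosome 7 from 24884371 to 24889806. It was at 2396, 2180, 1915 and 2071 CPM in NT and at 3442, 3105, 3325 and 4101 CPM in RT, with no overlap (log2 fold change 0.70, SE 0.16, edgeR adjusted p = 0.0690). Ribosomal protein genes have many near-identical pseudogenes, so its reads may be split between copies. The 4 calls differed in how they held. Leaving out each of the 8 libraries in turn kept Cdkn1a called in 8 of 8 fits, Ccng1 in 6, Phlda3 in 1 and Rps19 in none, and the number of genes called ranged from 1 to 11. Calls for Ccng1 were lost without the first NT library and without the second RT library, and 11 genes were called without the first RT library and 8 without the second NT library. With cycling barcodes kept, Ccng1 was the one gene called, and Cdkn1a lost its call at a log2 fold change of 2.76 (edgeR adjusted p = 0.677). With barcodes thinned to 1500 UMIs, or with at least 2 Foxp3 UMIs required, no gene passed the test in edgeR, with 113 and 225 genes at an unadjusted p below 0.05. The log2 fold change was then 2.23 and 2.00 for Cdkn1a and 1.32 and 1.49 for Ccng1, and over all 28 alternatives it stayed between 1.99 and 3.08 for Cdkn1a and between 1.32 and 2.07 for Ccng1.

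**Figure D3:**
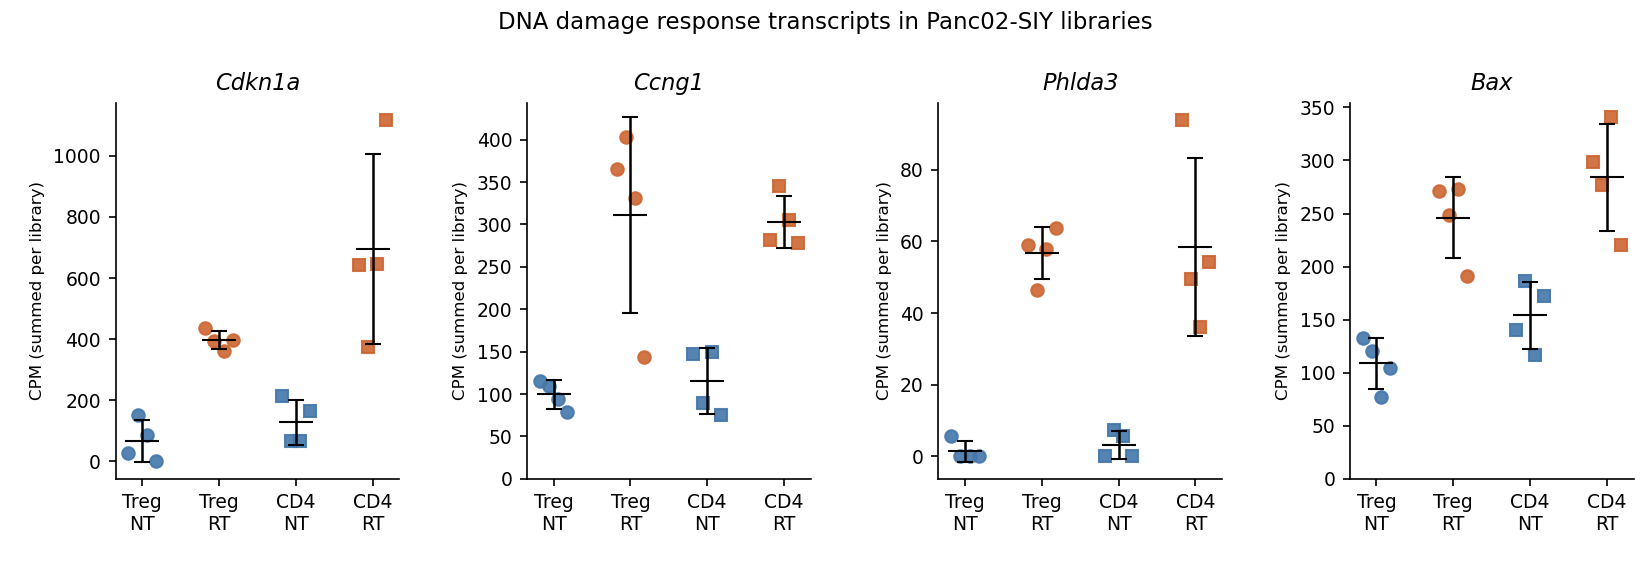
CPM of Cdkn1a, Ccng1, Phlda3 and Bax (y axis) summed over the Tregs (circles) and Foxp3-negative CD4 T cells (squares) of each Panc02-SIY library, scaled in the joint fit of both populations, with group mean and SD in black (n = 4). Treg RT points lie above all Treg NT points for each gene.

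The list of p53 targets was wider than these genes. Of its 42 members, 27 passed the filter on low counts. Phlda3 (1 UMI in NT Tregs, 26 in RT) and Pmaip1 (7 in NT, 36 in RT) passed it through RT. Bbc3, whose NT level given below is too low for the filter, did not pass it through NT either. Of the 27, 3 rose, none fell, and 23 had a positive and 4 a negative log2 fold change. The median was 0.84, against 0.03 over all genes. In 10 of the 27 (37.0%) every RT library was above every NT library, against 2.92% of all genes without overlap in either direction. Besides the called genes these were Bax, Pmaip1, Rps27l, Aen, Bbc3, Mdm2 and Xpc, named here after their values were seen. None of the 7 passed the adjusted threshold. Members that passed the filter through RT, where they are high, add to these tallies and to the median by construction, so they are a description and no test. With the replicate number as a block, 13 genes rose and 5 fell, and Bax was among them (log2 fold change 1.2, edgeR adjusted p = 0.0676). Same-numbered libraries did not deviate together over all genes, which in sums this shallow does not show that they were unpaired.

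Among the death effectors, Bax, which permeabilizes the mitochondrial membrane, was at 145, 137, 87.1 and 122 CPM in NT and at 306, 272, 291 and 221 CPM in RT (log2 fold change 1.15, SE 0.32, edgeR adjusted p = 0.320). Pmaip1 (Noxa), which neutralizes Mcl1, was at 12.6, 37.4, 19.3 and 0 CPM in NT and at 39.9, 93.3, 95 and 92 CPM in RT (log2 fold change 2.06, adjusted p = 0.376). Bbc3 (Puma), which binds the antiapoptotic BCL2 proteins, averaged 3.99 CPM in NT and 34.8 CPM in RT (log2 fold change 2.50, adjusted p = 0.928). For each of these 3 the NT and RT libraries did not overlap. Pmaip1 and Bbc3 did not pass the filter on low counts through NT, so for them this is a description and no test.

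Mdm2, the ubiquitin ligase that degrades p53, averaged 74.4 ± 19 CPM in NT and 128 ± 14.4 CPM in RT (SD, n = 4 each, log2 fold change 0.82, edgeR adjusted p = 1.00). Aen, a p53-induced nuclease, averaged 12.6 and 66.3 CPM (log2 fold change 2.11, adjusted p = 0.634), and Xpc, which recognizes DNA lesions for nucleotide excision repair, averaged 11.1 and 40.8 CPM (1.51, adjusted p = 1.00). Rps27l, a p53-induced relative of a ribosomal protein, averaged 301 and 538 CPM (0.84, adjusted p = 0.488). For each of the 4, every RT library was above every NT library, without passing the test across all genes.

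Of 14 listed members of the BCL2 family, which promote or block cell death, 12 were tested and none was called. The log2 fold change was positive in 9 and negative in 3 (median 0.35), and in 4 (33.3%) every RT library was above every NT library, against 2.92% of all genes without overlap in either direction. The 4 were Bax, Bbc3, Pmaip1 and Mcl1, the first 3 of which are also on the p53 list. Pmaip1 passed the filter on low counts through RT, where it is high, and Bbc3 did not pass it through NT. Their places among the 4 are a description and no test. Mcl1, an antiapoptotic member with a short-lived protein, was at 396, 436, 290 and 335 CPM in NT and at 545, 501, 537 and 644 CPM in RT, without overlap (log2 fold change 0.58, SE 0.24, edgeR adjusted p = 0.973). Bcl2a1b, an NF-kB target of the same group, averaged 326 ± 81.3 CPM in NT and 239 ± 131 CPM in RT with overlap (log2 fold change -0.36, adjusted p = 1.00).

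Genes of Treg identity had no member called after RT. Foxp3, given as a description, averaged 615 ± 138 CPM in NT and 637 ± 103 CPM in RT (SD, n = 4 each). Il2ra was at 1000, 1146, 948 and 457 CPM in NT and at 1302, 1332, 1163 and 1251 CPM in RT, with all RT libraries above all NT libraries by a small margin (log2 fold change 0.46, SE 0.20, edgeR adjusted p = 1.00). Ctla4 averaged 1541 ± 440 and 1856 ± 575 CPM with overlapping libraries (0.31, SE 0.20), and Ikzf2 averaged 2862 ± 537 and 3137 ± 700 CPM (0.13, SE 0.17, with the sign changing under 3 alternatives). Of 18 genes on the identity list 17 were tested, with a median log2 fold change of 0.13. Of 29 tissue and effector Treg genes 28 were tested, with a median of 0.09, and examples of high level were Maf at 2664 ± 909 and 2974 ± 533 CPM (0.15) and S100a6 at 3288 ± 1353 and 3822 ± 887 CPM (0.20).

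The remaining lists held no called gene in this comparison either. Interferon-stimulated genes, of which 48 of 55 were tested, had a median log2 fold change of 0.13 with 30 higher and 18 lower, and DNA repair genes had a median of 0.21 over 10 tested. The median was 0.10 for 13 NF-kB genes, 0.11 for 13 genes of IL-2 and STAT5 signaling, 0.09 for 11 TNF receptor and costimulation genes, -0.17 for 8 inhibitory receptors and 0.32 for 10 chemokine receptors. Among the chemokine receptors 6 values were positive and 4 negative, and 2 of the 10 (20%) did not overlap between groups, against 2.92% of all genes. Cxcr6, a receptor of tissue-resident T cells, was at 176, 174, 184 and 60.9 CPM in NT and at 199, 348, 190 and 258 CPM in RT, higher in RT (log2 fold change 0.60, SE 0.31, edgeR adjusted p = 1.00). Ccr2 was at 1088, 1221, 1499 and 974.5 CPM in NT and at 837, 764, 961 and 644 CPM in RT, lower in RT (-0.57, SE 0.20, edgeR adjusted p = 0.704). On the IL-2 and STAT5 list 2 of 13 (15.4%), Il2ra and Cish, were higher in every RT library than in every NT library, and neither was called. The median was 0.38 for 8 resting T cell genes, 0.23 for 10 S phase genes, 0.02 for 15 glycolysis and hypoxia genes, -0.01 for 15 immediate early genes, 0.01 for 12 genes of MHC class I presentation and -0.09 for 6 helper factors.

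Transcripts of other cells moved between libraries. The 10 macrophage and monocyte markers summed to 81.1, 1365, 177 and 231 CPM in Tregs of Panc02-SIY NT and to 65.8, 393, 415 and 251 CPM in RT. The high NT library was led by Lyz2 at 618 CPM. The 5 neutrophil markers pooled to 37.3 CPM in NT and 358 CPM in RT, led by S100a8, and the RT value came mostly from the second (252 CPM) and the third (641 CPM) libraries. The 4 dendritic cell markers pooled to 7.47 CPM in NT and 73.5 CPM in RT, of which the fourth RT library had 359 CPM, led by Cd209a at 215 CPM. The 4 B cell markers pooled to 117 CPM in NT and 13.4 CPM in RT, and the NK cell markers to 82.1 and 97.9 CPM. Their part in the RT result was not tested directly. When barcodes with a UMI of another lineage were left out, 3 genes were called, all of them among the 4 above (Ccng1, Cdkn1a and Rps19).

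Tregs were next set against Foxp3-negative CD4 T cells of the same library, to describe what else these barcodes expressed. The 8 Panc02-SIY libraries held 159 Tregs and 372 CD4 T cells, the library was kept as a block, and the genes of either gate were left out. Of 8796 genes, 416 were higher in Tregs (4.73%) and 831 were lower (9.45%), with a median log2 fold change of -0.15. That split depended on scaling: with library size alone 764 were higher and 540 lower, and the median shifted to 0.06. In this comparison, without the later test of the RT effect, the genes given below with a log2 difference kept its sign under the alternatives run. A gene with fewer than 15 UMIs in either population passed the filter on low counts through the other. Calls of such genes, and their part in list tallies and medians, are a description and no test. Named below, these are Ccl1, Csf2, Il13, Il4, Tnfsf8, Lif, Fam213a, Krt83, Cd40lg, Ifit3, Plk2 and Ccr7, each low in Tregs.

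Treg identity genes stood out against that background, with 14 of 17 tested higher, 1 lower and a median log2 fold change of 1.23. Ikzf2 ranged from 1808 to 3806 CPM (median 2738) over the 8 libraries in Tregs and from 144 to 895 CPM (median 309) in CD4 T cells, a log2 difference of 2.81 (SE 0.13, edgeR adjusted p = 1.17e-34). Il2ra ranged from 393 to 1218 CPM (median 1045) in Tregs and from 77.8 to 340 CPM (median 314) in CD4 T cells (log2 difference 1.96, SE 0.15). Ctla4 ranged from 1040 to 2415 CPM against 133 to 761 CPM (1.96, SE 0.16). In all 3 the Treg and CD4 libraries did not overlap, and all 8 libraries had the higher level in Tregs.

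Among the identity genes, Lrrc32 (GARP), which docks latent TGF-beta, ranged from 54.3 to 121 CPM in Tregs and from 0 to 24.2 CPM in CD4 T cells (log2 difference 3.03, SE 0.41). Izumo1r (folate receptor 4) had medians of 443 and 60.9 CPM (2.73, SE 0.20), and Tnfrsf4 (OX40), a costimulatory receptor, had medians of 1522 and 447 CPM (1.81, SE 0.12). Itgae (CD103), the integrin chain that binds E-cadherin, had medians of 519 and 44.6 CPM (2.46, SE 0.20) but was at 0 in the fourth NT library, where 5 Tregs were found. The single identity gene that was lower was Nrp1 (neuropilin-1), with a median of 30.0 CPM in Tregs and 118 CPM in CD4 T cells (-1.77, SE 0.29, edgeR adjusted p = 5.26e-08), lower in 8 of 8 libraries.

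**Figure D4:**
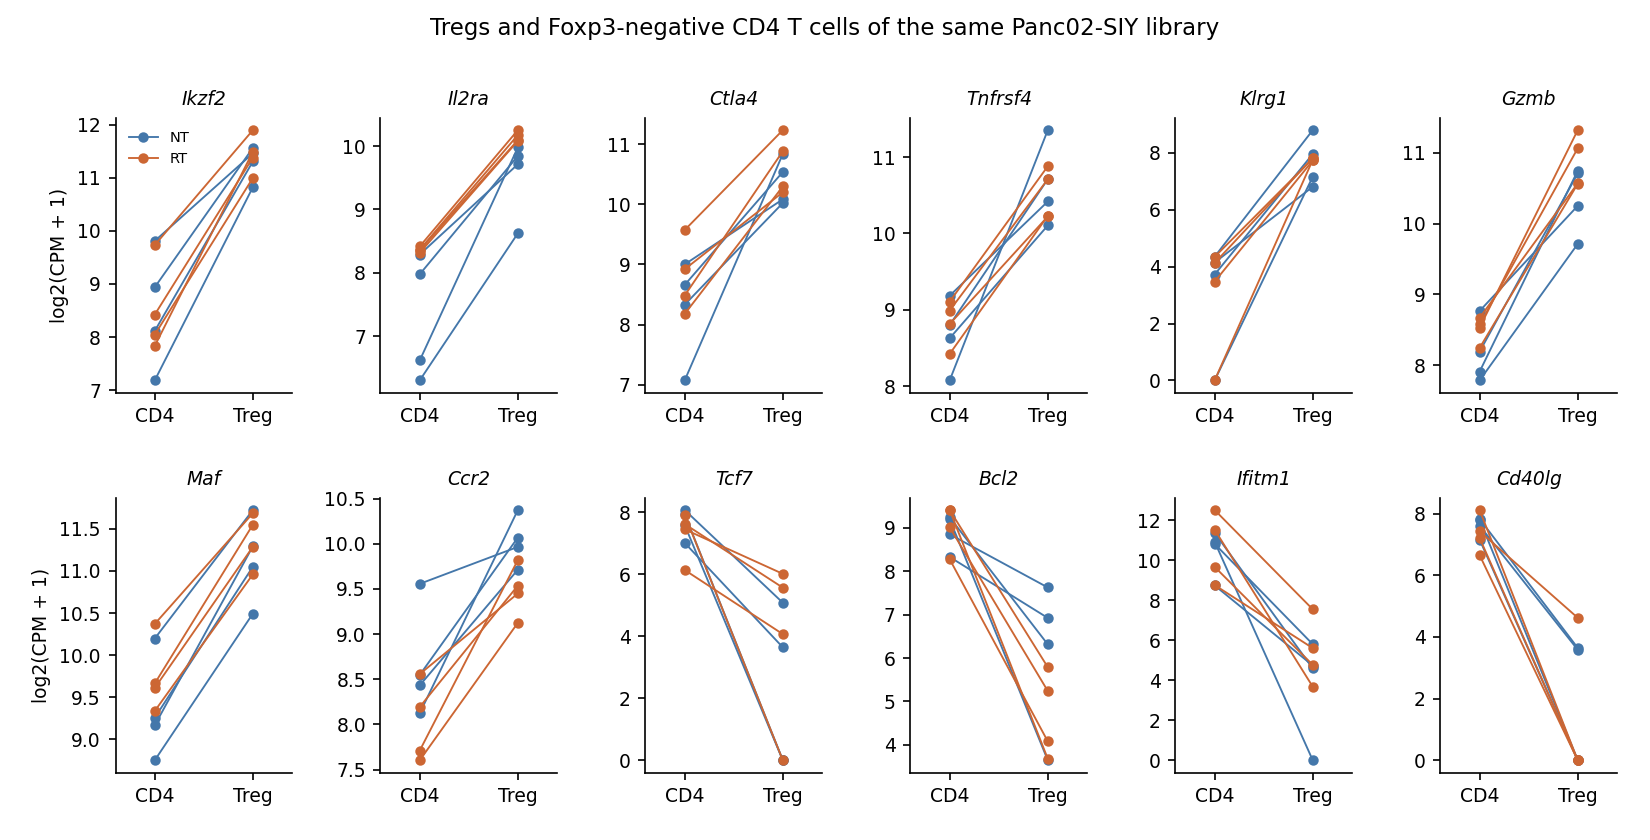
log2(CPM + 1) of 12 genes (y axis) in Foxp3-negative CD4 T cells and Tregs of the same Panc02-SIY library, joined by a line (blue NT, orange RT, 8 libraries). Lines rise for Ikzf2, Il2ra, Ctla4, Tnfrsf4, Klrg1, Gzmb, Maf and Ccr2 in all libraries, and fall for Tcf7, Bcl2, Ifitm1 and Cd40lg in all.

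Effector and tissue Treg genes were also higher on balance, with 13 of 28 higher, 5 lower and a median log2 difference of 0.66. Klrg1, an inhibitory lectin receptor of terminally differentiated Tregs, ranged from 111 to 445 CPM (median 219) in Tregs and from 0 to 19.4 CPM (median 14.4) in CD4 T cells (log2 difference 4.21, SE 0.30, edgeR adjusted p = 1.30e-42). It was the largest rise among called genes with the same sign in every library and at least 50 CPM in Tregs. Gzmb (granzyme B), the cytotoxic protease, had medians of 1597 and 335 CPM (2.29, SE 0.13), and Maf, a transcription factor of IL-10 producing T cells, had medians of 2502 and 714 CPM (1.71, SE 0.11). Both were higher in all 8 libraries without overlap. Il10, a suppressive cytokine, was more variable, from 207 to 1060 CPM in Tregs and from 6.7 to 215 CPM in CD4 T cells (3.18, SE 0.58, edgeR adjusted p = 0.0182), with Tregs higher in 8 of 8 libraries but the lowest Treg library, at 207 CPM, below the highest CD4 library. Members that were lower included Gata3, the type 2 lineage factor (-0.97, SE 0.17), and Id2, an inhibitor of E proteins (-1.71, SE 0.13, medians of 400 and 1334 CPM).

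TNF receptor family and costimulation genes had 7 of 10 members higher and Cd226 lower, with a median log2 difference of 1.04. Tnfrsf9 (4-1BB) had medians of 1133 CPM in Tregs and 272 CPM in CD4 T cells (log2 difference 1.95, SE 0.14), Cd27 had 446 and 86.6 CPM (2.10, SE 0.18), and Tnfrsf1b (TNFR2) had 510 and 119 CPM (1.93, SE 0.17). Cd226, the activating receptor that competes with Tigit, had 22.8 and 73.2 CPM (-1.93, SE 0.39). Of 9 inhibitory receptors 6 were higher, among them Lag3 (2.09, SE 0.17) and Havcr2, which encodes TIM-3 (1.71, SE 0.26), and 2 were lower. The lower ones were Cd96, at medians of 11.2 and 83.6 CPM (-2.20, SE 0.39), and Pdcd1 (PD-1), at 22.6 and 51.9 CPM (-1.23, SE 0.40, edgeR adjusted p = 0.0215). Pdcd1 lost its call in 2 of the 8 fits that leave out a library.

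Other genes with large rises are less tied to Tregs by name. Among them were Gm17767, an unnamed predicted gene (3.35, SE 0.39), Itih5, of a family of matrix-binding inhibitors (2.81, SE 0.39), C1qtnf6 (2.80, SE 0.51), Matn2, a matrix adaptor protein (2.79, SE 0.55), and Chchd10, a mitochondrial protein (2.72, SE 0.41). Their Treg medians lay between 50.1 and 93.3 CPM, and their CD4 medians between 5.5 and 10.8 CPM.

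Among the 10 largest falls were genes of secreted or membrane-bound signals. The chemokine gene Ccl1, Csf2 (GM-CSF), Il13 and Il4 had no UMI in the 851010 Treg UMIs, against 1110, 851, 574 and 321 UMIs in CD4 T cells. They passed the filter on low counts through CD4 T cells, where they are high, so their calls are a description and no test. Against a floor of 3 counts over all Treg libraries they were at least 132-fold, 101-fold, 68.2-fold and 38.1-fold lower in Tregs. The CD4 counts were uneven between libraries, and without the fourth RT library the bounds for Ccl1, Il13 and Il4 were 70.9-fold, 38.6-fold and 14.8-fold, while that for Csf2 was 71.8-fold without the third RT library, a check added after seeing the data. Ccl1 ranged from 16.8 to 2120 CPM over the CD4 libraries, and Il4 from 11.1 to 789 CPM. Cd40lg (CD40 ligand), the helper signal to B cells and dendritic cells, ranged from 0 to 23.6 CPM in Tregs and from 99.7 to 277 CPM in CD4 T cells (log2 difference -4.92, SE 0.40, edgeR adjusted p = 8.49e-33).

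Tnfsf8 (CD30 ligand) ranged from 0 to 47.8 CPM in Tregs and from 200 to 1056 CPM in CD4 T cells (log2 difference -7.15, SE 0.38), and Ifitm1, a membrane protein induced by interferon, from 0 to 186 CPM and from 428 to 5858 CPM (-5.51, SE 0.19). Lif, a cytokine of the IL-6 family, had 4 UMIs in Tregs and 245 in CD4 T cells (-5.59, SE 0.56), Fam213a 3 and 188 (-5.30, SE 0.62) and Krt83, a hair keratin gene, 2 and 130 (-4.90, SE 0.72). Il4, which passed the filter on low counts through CD4 T cells, enters the next tally as a description and no test. Of 8 helper factors tested, 4 were lower and none higher, with a median of -0.55. Beside Il4 and Gata3 these were Ifng, which ranged from 0 to 52.5 CPM in Tregs and from 27.8 to 539 CPM in CD4 T cells (-2.70, SE 0.31), and Stat4, at medians of 55.7 and 129 CPM (-1.35, SE 0.27).

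Genes of resting and recirculating T cells were lower in Tregs for 7 of 13 members and higher for 1, with a median log2 difference of -0.91. Tcf7, the transcription factor TCF-1 of naive and memory T cells, had medians of 13.7 and 194 CPM (-3.20, SE 0.32), Ccr7, the lymph node homing receptor, had 9.55 and 89.7 CPM (-2.56, SE 0.41), and S1pr1, the receptor for egress from tissue, had 77.3 and 274 CPM (-1.65, SE 0.22). All 3 were lower in 8 of 8 libraries. The survival gene Bcl2 had medians of 45.6 and 552 CPM (-3.21, SE 0.22), the lone fall on the IL-2 and STAT5 list, on which Pim1 (0.89), Il2rb (0.62) and Il2ra were the 3 rises of 13 tested.

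Chemokine receptors were divided, with 2 of 11 higher, 5 lower and a median log2 difference of -0.75. Ccr2, the receptor for monocyte-attracting chemokines, had medians of 871 and 318 CPM (1.4, SE 0.14) and was higher in all 8 libraries. Cxcr6, a receptor of tissue-resident T cells, had 170 and 536 CPM (-1.68, SE 0.17), lower in all 8, and Cxcr4, the receptor for Cxcl12, had 129 and 203 CPM (-0.75, SE 0.20), lower in 7 of 8.

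Of 15 immediate early and stress genes 6 were lower and none higher, with a negative log2 difference in 14 (median -0.26), with Junb at medians of 950 CPM in Tregs and 2275 CPM in CD4 T cells (log2 difference -1.15, SE 0.11), Ier2 at 195 and 442 CPM (-1.19, SE 0.17) and Egr1 at 160 and 415 CPM (-1.10, SE 0.17). Interferon-stimulated genes were divided, and of 52 tested 12 were higher and 6 lower (median 0.01). Samhd1, which hydrolyzes deoxynucleotides, was 0.99 higher (SE 0.13) and Igtp, an immunity-related GTPase, 0.73 higher (SE 0.16), while Lgals3bp (-1.15, SE 0.27) and Ifit3 (-3.35, SE 0.82) were lower. Of 34 p53 targets 3 were higher, including Trp53inp1 (0.76, SE 0.19) and Ddit4 (0.90, SE 0.29), and 3 lower, among them Btg2 (-1.67, SE 0.16) and Plk2 (-1.76, SE 0.52), with a median of -0.21. Cdkn1a was the third lower gene (-0.76, SE 0.27, edgeR adjusted p = 0.0615), and its call held in 4 of the 8 fits that leave out a library. Plk2 kept its call in 6 of those 8, not without the first NT (-1.32) or the third RT library (-1.11), and Ddit4 in 7, not without the third NT library (0.78). With barcodes of other lineages left out neither was called (0.47 for Ddit4), and thinned to 1500 UMIs the Ddit4 difference was 0.01. Over all genes 4.73% were higher and 9.45% lower, and counts of 3 and 3 among 34 stand too near these shares to set the p53 targets apart.

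The remaining lists can be read against the 4.73% of all genes that were higher and the 9.45% that were lower. None of 14 DNA repair genes was higher and 1 was lower (median -0.34), and of 11 S phase genes 1 was lower (median -0.58). Of 13 BCL2 family genes 2 were higher and 2 lower (median -0.06), of 13 NF-kB genes 2 were higher and 3 lower (0.11), of 16 glycolysis and hypoxia genes 2 were higher and 2 lower (0.07), and of 12 MHC class I genes 1 was higher (0.05). Macrophage transcripts also differed between the gates. C1qa, a complement gene of macrophages, had medians of 59.3 CPM in Tregs and 663 CPM in CD4 T cells. With barcodes of other lineages left out, 658 genes were called, 249 higher and 409 lower.

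**Figure D5:**
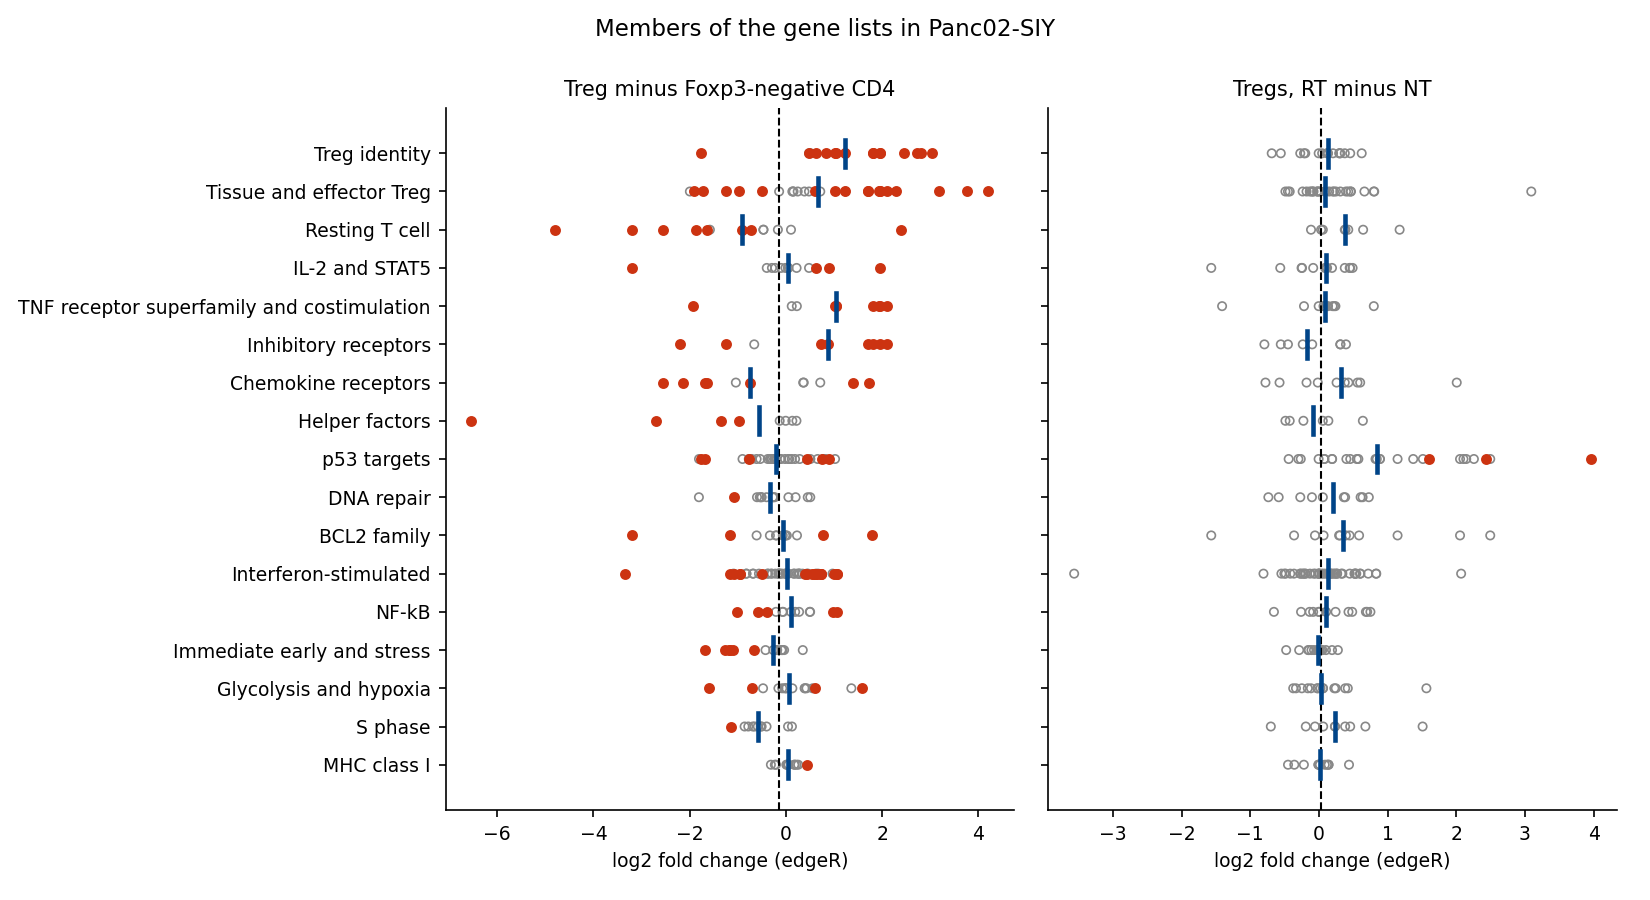
log2 fold changes (x axis, edgeR) of the tested members of each gene list in Panc02-SIY, Tregs minus Foxp3-negative CD4 T cells on the left and RT minus NT Tregs on the right. Red points are called genes, open points are not called, blue bars are list medians and the dashed line is the median of all genes. On the right the p53 targets are the list with called genes and with the largest median, 0.84. That list includes members that passed the filter on low counts through RT.

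Whether Tregs and CD4 T cells differed in their change after RT was tested as a difference of differences in the Panc02-SIY libraries. Cdkn1a in CD4 T cells was at 214, 67.2, 66.7 and 167 CPM in NT and at 644, 373, 646 and 1118 CPM in RT, and on the same scale Tregs had 28.9, 153, 85.5 and 0 CPM and 436, 396, 362 and 398 CPM. RT libraries were above NT libraries in both populations, and the difference between their log2 changes was 0.16 (SE 0.53, edgeR adjusted p = 1.00), with the sign changing under 6 alternatives. For Ccng1 it was 0.29 (SE 0.40, adjusted p = 1.00), with CD4 values of 147, 89.6, 150 and 75.0 CPM in NT and 282, 345, 305 and 279 CPM in RT. Phlda3 in CD4 T cells was at 0, 7.5, 5.6 and 0 CPM in NT and at 93.9, 49.6, 36.2 and 54.2 CPM in RT. The standard errors are wide, and a p above the threshold does not show that the responses were alike.

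Of 8796 genes, 3 passed the test of this difference (0.0341%), all in the direction of a lower RT effect in Tregs than in CD4 T cells. They were Lyz2, the lysozyme of myeloid cells (log2 difference -4.51, SE 0.60, edgeR adjusted p = 6.28e-10), Igkc, an immunoglobulin light chain gene (-3.99, SE 0.83, adjusted p = 0.0109), and Ighm, the immunoglobulin mu heavy chain gene (-1.73, SE 0.39, adjusted p = 0.0508). Lyz2 was at 11.5, 580, 8.6 and 0 CPM in Tregs of NT libraries and at 23.6, 0, 21.0 and 15.9 CPM in RT, and in CD4 T cells at 12.2, 321, 38.9 and 77.8 and at 520, 66.2, 169 and 1165 CPM. Igkc was at 375, 32.9, 34.2 and 0 CPM in NT Tregs and at 11.8, 54.3, 52.5 and 0 CPM in RT Tregs, and in CD4 T cells the second RT library held 286 CPM. In Tregs the second NT library thus held most of the Lyz2 signal and the first NT library most of the Igkc signal.

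Lyz2 is a member of the macrophage and monocyte list, and Igkc and Ighm are immunoglobulin genes. The macrophage and monocyte markers summed to 157, 6760, 1164 and 2026 CPM in CD4 T cells of NT libraries and to 2839, 1653, 4014 and 4537 CPM in RT, highest in the second NT library, while Lyz2 was highest in the fourth RT library. In the first NT library, the 4 B cell markers summed to 255 CPM in Tregs, led by Cd79a at 98.5 CPM, against at most 33.1 CPM in the other Panc02-SIY libraries. In CD4 T cells the second RT library had 131 CPM of the same markers. Igkc was highest in the first NT library in Tregs and in the second RT library in CD4 T cells. Ighm was at 186 to 498 CPM in Tregs of the 7 libraries where the B cell markers were low. With barcodes of other lineages left out, the Igkc difference turned to 1.49, and with cycling barcodes kept the Lyz2 difference turned to 0.32. Lyz2 could not be tested in the first of these fits, since a Lyz2 UMI is among those that removed a barcode, and Igkc and Ighm were not called in it. None of the 3 genes was called with cycling barcodes kept. The fits called 12 and 4 other genes. Leaving out each library gave between 2 and 10 called genes, with 10 without the third NT library.

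Detection of effector genes was described per barcode. At 1500 UMIs a gene can be missed, and Foxp3, present in every member, was itself detected in 64.3% of Panc02-SIY NT and 72.4% of RT Tregs. Gzmb was detected in 116 of 157 Tregs (73.9%) and Klrg1 in 28 (17.8%). Gzmb and Klrg1 were found together in 23 Tregs, and 36 had neither. Klrg1 was detected in 19.8% of the Tregs with Gzmb and in 12.2% of those without, a description with no test. In macrophages, which should lack these genes or hold little of them, the shares were 4.50% for Gzmb and 0.171% for Klrg1, below those of Tregs. Il10 was detected in 42.7% of Tregs against 2.22% of macrophages, and Ccr8, a chemokine receptor often used to mark tumor Tregs, in 6.37%.

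By library, Klrg1 was detected in 14.8%, 13.3%, 17.4% and 20% of NT Tregs and in 28.6%, 16.7%, 17.1% and 25% of RT Tregs. Itgae was found in 70.4%, 46.7%, 73.9% and 0% of NT Tregs and in 50%, 45.8%, 29.3% and 25% of RT Tregs, where the 0% is of 5 Tregs. That 0% sets no limit on the share of Tregs expressing Itgae, since Foxp3 itself was detected in 40% of those 5 at this depth. Cdkn1a at this depth was found in 3.70%, 26.7%, 13% and 0% of NT and in 42.9%, 25%, 34.2% and 25% of RT Tregs, so that thinned shares of the second NT library and of 2 RT libraries overlapped while the CPM values did not. Phlda3 was found in 3.70% of the Tregs of the first NT library and in none of the other 3, against 21.4%, 8.33%, 14.6% and 12.5% in RT.

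MC38 Tregs are given as pooled counts, since 1 library of each MC38 group had the 5 Tregs required and no test could be made at that limit. Il2ra stood at 810 CPM in the 12 NT Tregs (95% Poisson interval 636 to 1016) and at 1682 CPM in the 9 RT Tregs (1332 to 2096), and Ikzf2 at 1247 CPM (1029 to 1498) and 2768 CPM (2313 to 3287). Ctla4 stood at 2603 CPM in NT (2283 to 2956) and at 1022 CPM in RT (754 to 1355). The intervals of NT and RT did not overlap for these 3 genes, but they cover counting error only and not the spread between libraries. The largest Treg of the third NT library held 30928 of the 91419 NT UMIs. In a fit that allowed libraries with at least 1 Treg, none of 17 Treg identity genes was called for RT against NT. Of all 4417 genes in it, 0.204% rose and 0.702% fell. Of the 17, 8 were higher and 9 lower, with a median log2 fold change of -0.05. Of the 238 Ctla4 UMIs in NT, 160 came from the 3 Tregs of the first library (5694 CPM), and the other NT libraries, at 1526 and 459 CPM, stood beside RT libraries at 370, 1416 and 645 CPM. Pooled over 138383 UMIs, the 21 MC38 Tregs had 1106 CPM of Il2ra, 1763 CPM of Ikzf2 and 2067 CPM of Ctla4, and the 21 Foxp3-negative CD4 T cells of MC38 had 406, 938 and 680 CPM. All 21 of these CD4 T cells carried a UMI of another lineage, and their macrophage and monocyte markers summed to 15070 CPM, against 2247 CPM in the MC38 Tregs, and the part of these transcripts in the comparison was not tested. Il2ra was detected in 20 of 21 MC38 Tregs, Ikzf2 in 20 and Ctla4 in 18.

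The damage response genes were few in counts. Cdkn1a had 21 UMIs in 3 of 12 MC38 NT Tregs (230 CPM, interval 142 to 351) and 16 UMIs in 6 of 9 RT Tregs (341 CPM, 195 to 553). Of the NT UMIs, 20 came from the third library. Ccng1 had 4 UMIs in NT and 7 in RT (43.8 and 149 CPM), Phlda3 had 1 and 3, and Bax had 14 and 18 (153 and 383 CPM). The counting intervals of NT and RT overlapped for each of the 4 genes, which does not show that they were alike. In a fit that allowed libraries with at least 1 Treg, 19 of the 42 listed p53 targets were tested for MC38 RT against NT, 1 rose and none fell, against 0.204% of all 4417 genes that rose and 0.702% that fell. The log2 fold change was positive in 14 and negative in 5 (median 1.21, against -0.28 over all genes), and nothing is read from a single call. The gene was Trp53inp1 (log2 fold change 3.83, SE 0.975, edgeR adjusted p = 0.0650), named here after its value was seen. Of 14 immediate early and stress genes tested in that fit, none rose and 3 fell, with 3 higher and 11 lower (median -1.30). Among the other lists, 1 of 45 interferon-stimulated genes rose and 1 of 7 chemokine receptors fell, and the rest held no call.

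Some genes had different pooled levels in the Tregs of the 2 tumors. Cxcr4 had 1 UMI in the MC38 Tregs (7.23 CPM, interval 0.183 to 40.3) and 121 UMIs in the Panc02-SIY Tregs (142 CPM, 118 to 170). Bcl2 had no UMI in the MC38 Tregs, which allows up to 21.7 CPM (3 counts). It had 55 UMIs in the Panc02-SIY Tregs, of which 39 were in 8 of the 70 NT Tregs. Gzmb pooled to 3136 CPM in MC38 and 1832 CPM in Panc02-SIY, but 325 of the 434 MC38 UMIs came from the 3 Tregs of the first NT library. In RT Tregs the direction was the opposite, with 1384 CPM in MC38 and 2141 CPM in Panc02-SIY. Itgae stood at 181 CPM in MC38 and 518 CPM in Panc02-SIY. With libraries of at least 1 Treg allowed, 3 NT and 3 RT libraries of MC38 could be fitted, and edgeR then called 298 genes between the tumors over NT and RT together (31 higher in MC38 and 267 lower). Between NT groups it called 121 (53 higher and 68 lower) and between RT groups 7 (3 and 4). Gzmb and Itgae were in neither of these 2 sets of calls. Cxcr4, Bcl2 and Ikzf2 were called lower in MC38 between NT groups (Ikzf2 log2 fold change -1.13, edgeR adjusted p = 0.0966). Cxcr4 and Bcl2 passed the filter on low counts through Panc02-SIY, where they are high, so their calls are a description and no test. The MC38 Tregs summed to 138383 UMIs against 851010 in Panc02-SIY, and the part of this depth in the calls between tumors was not tested. The same fit called 40 for MC38 RT against NT (9 higher and 31 lower) and 2 for the tumor by radiation interaction, Irf8 (adjusted p = 0.0475) and Ccr1 (adjusted p = 0.0480), which are named after their values were seen. The macrophage and monocyte markers summed to 2877 CPM in MC38 NT Tregs (4796 CPM in the third library) and to 1022 CPM in MC38 RT Tregs, and their part in these calls was not tested. In that fit no gene was called for Panc02-SIY RT against NT, with 119 at an unadjusted p below 0.05. The macrophage and monocyte markers summed to 2247 CPM in MC38 Tregs and 360 CPM in Panc02-SIY Tregs, and their part in these differences was not tested.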

How the data were processed

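Live CD45+ tumor cells were profiled with 10x 3' chemistry in 16 libraries. The deposited values are UMI counts per gene and barcode, not normalized, made by the authors with Cell Ranger 3.1.0 and bcl2fastq 2.20.0 on mm10, per the submitters' processing notes. The aggregated matrices were not used here. Barcodes needed 500 genes and at most 10% mitochondrial UMIs, and no doublet caller was run (Tregs without UMIs of another lineage are an alternative). The members and gene lists were chosen with earlier results of these data known.

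Counts were summed over the barcodes of a gate in each library with at least 5 barcodes and fitted with edgeR 4.0.16 (quasi-likelihood, TMM scaling, R 4.3.3), and filterByExpr (min.count 3, min.total.count 15). Genes were called where p, adjusted by Benjamini-Hochberg, was under 0.1 and the difference exceeded 1.3-fold. Treg sums held 30250 to 190302 UMIs per Panc02-SIY library, which limits genes of low level. Shares were computed after thinning barcodes to 1500 UMIs and compared with two-sided exact permutation tests (scipy 1.17.1), with 95% exact binomial (Clopper-Pearson) or Poisson intervals, which cover counting error only. A count of 0 was given an upper limit of 3 counts.

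Named genes were Il2ra, Ctla4 and Ikzf2, the largest non-overlapping called changes (Tregs against CD4 T cells: the 10 largest each way with the same sign in every library and at least 50 CPM), and up to 4 called members of each list or otherwise its 2 most abundant. Genes outside this rule, such as Mdm2, Xpc, Aen, Rps27l and C1qa, were chosen after their values were seen. Some members of these lists are not reported here. The labels give no sequencing batch. Alternatives included DESeq2 1.42.0, limma 3.58.1 (voom), other scalings, filters and gates, and each library left out. The fits were tested on simulated data.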

Additional observations from a re-analysis of the deposited data

Results flagged for a closer look

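Among 135 groups of 4 libraries, 7 had a library whose gap to its nearest neighbor, divided by the range of the group, was above Dixon's critical value of 0.829, and chance gives about 1 in 20. All 7 were of Panc02-SIY, as were the other groups except the MC38 NT share of CD3 barcodes. In NT Tregs, Egr1 was at 523 CPM in the second library and at 107 to 135 CPM in the others (ratio 0.932), and Stat4 was at 12.5 CPM there and at 60.9 to 69.2 CPM elsewhere (0.854). The fourth NT library, with 5 Tregs, was low for Cxcr6 at 60.9 CPM against 174 to 184 CPM (0.924) and for Pim1 at 1127 CPM against 1761 to 1876 CPM (0.845). Phlda3 had its one NT UMI in the first library (1.0). In RT Tregs, Il10 was at 239 CPM in the fourth library against 1052 to 1196 CPM (0.849), and Pmaip1 at 39.9 CPM in the first against 92 to 95 CPM (0.946).

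The log2 change after RT differed between Tregs and Foxp3-negative CD4 T cells for 3 genes by edgeR's interaction test, with -4.51 for Lyz2, -3.99 for Igkc and -1.73 for Ighm. The part of transcripts from myeloid and B cells in these differences was not tested directly. None of the 3 was called with cycling barcodes kept, where 4 other genes were. Without barcodes of other lineages Lyz2 could not be tested, since a Lyz2 UMI removed a barcode, and Igkc and Ighm were not called, while 12 other genes were. Leaving out 1 library at a time kept the call in 7 of 8 fits for Lyz2, 6 for Igkc and 3 for Ighm.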

How the results depend on the processing

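Of 2468 alternative values over 94 results, 2252 held, and 1644 of the 2468 were for genes of Tregs against CD4 T cells. For genes and shares, to hold means the same direction and side of the threshold. For the 82 counts of called genes it means a count near the main one, and 42 held while 40 moved. For Tregs of Panc02-SIY, RT against NT, 4 genes were called, and the count was 2 with RLE scaling, min.count 10, a 0.05 limit on adjusted p, 1 more marker UMI or at least 10 barcodes, 1 with DESeq2 (Cdkn1a) or with cycling barcodes kept (Ccng1), 7 without a filter, 0 with thinning, at least 2 Foxp3 UMIs or at least 1 barcode, and 1 to 11 leaving out a library. Over all genes, same-numbered NT and RT libraries did not deviate together (r between -0.02 and 0.045), and a replicate block gave 18 calls (13 higher, 5 lower). In sums this shallow such r values do not show that the libraries were unpaired, and the fourth library had the lowest CD3 share in both groups. Tregs against CD4 T cells gave 1247 calls, 713 with DESeq2, 458 with thinning, 658 without other lineages, 583 with cycling barcodes, 463 with at least 1 barcode, 1105 with the replicate block in place of the library, and 1001 to 1139 leaving out a library. The difference in RT effect gave 3 calls, 0 with DESeq2 (89 at an unadjusted p below 0.05), thinning or the replicate block, 1 with a minimum count of 10, at least 1 barcode, limma-voom or edgeR's newer quasi-likelihood (both added after seeing the data), 7 with at least 2 Foxp3 UMIs, 12 without other lineages, 9 with at least 10 barcodes, and 2 to 10 leaving out a library.

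The MC38 change in CD3 share, -0.874 percentage points, turned to 3.82 when thinned to 2500 UMIs, 0.147 with another seed, 0.811 with at least 2 Foxp3 UMIs, 1.90 with cycling barcodes, 4.11 with all deposited barcodes and 1.15 with strings kept in every library, and ranged from -4.26 to 3.58 leaving out a library (1.14 without the fourth RT library). Thinned to 1000 UMIs, the Panc02-SIY change was -0.432 for CD3 and -0.0952 for Treg plus CD8, and for Treg plus CD4 it ranged from -13.8 to 0.181 leaving out a library. Ikzf2 after RT ranged from -0.03 (without the third RT library) to 0.24 leaving out a library, and turned to -0.03 with at least 2 Foxp3 UMIs and to -0.19 without other lineages. In the difference of RT effects, Lyz2 turned to 0.32 with cycling barcodes, Igkc to 1.49 without other lineages, and Cdkn1a to -0.50 thinned, -0.43 with at least 2 Foxp3 UMIs, -0.19 without other lineages, -0.68 without the first NT, -0.15 without the fourth NT and -0.10 without the second RT library, with 0.96 as the highest value leaving out a library. The cause was not tested. Summed Treg depth limits genes of low level, and MC38 holds 21 Tregs.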

Other observations

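Ighm, the immunoglobulin mu heavy chain gene, was higher in Panc02-SIY Tregs than in Foxp3-negative CD4 T cells. It was at 1010, 307, 351 and 498 CPM in Tregs of the NT libraries and at 365, 186, 231 and 319 CPM in RT, against 67.2, 44.8, 106 and 97.2 CPM and 90.5, 326, 112 and 73.5 CPM in CD4 T cells. Tregs were higher in 7 of 8 libraries, with a log2 difference of 1.81 (SE 0.20, edgeR adjusted p = 3.37e-15). The B cell genes Cd79a and Ms4a1 had no UMI in Tregs of 7 of the 8 libraries, and the exception was the first NT library, which also had the highest Ighm.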
